A study of Rattus norvegicus with 15 samples.

Results

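The phase II conjugation enzymes of rat liver were followed across a high-fat diet and a herbal treatment. The genes were the rows of the deposited liver expression table whose symbol begins with Ugt1, Ugt2 or Ugt3, with Sult and a digit, or with Gst, a class letter and a digit, numbered copies included. This gave 56 of the 21576 rows: 19 UDP-glucuronosyltransferases (UGT), 15 cytosolic sulfotransferases (SULT) and 22 glutathione S-transferases (GST).

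These enzymes make a lipid-soluble compound easier to excrete by attaching a polar group. UGTs add glucuronic acid from UDP-glucuronate, SULTs add sulfate from the donor PAPS, and GSTs add glutathione. In the liver they act on bilirubin, bile acids, steroid and thyroid hormones, drugs and lipid peroxidation products, and the conjugates leave through transporters of the cell membrane.

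The animals were Sprague-Dawley rats, all male, and whole liver RNA was sequenced in 15 libraries, 5 for each of 3 groups. CON rats ate normal chow. HFD and ZXD rats ate an irradiated high-fat diet, in which a base forage share of 66% was mixed with sucrose at 16.7%, yolk at 8.3%, lard at 7%, cholesterol at 2%, sodium cholate (a bile salt) at 0.3% and propylthiouracil (an inhibitor of thyroid hormone synthesis) at 0.2%. After 4 weeks, HFD rats were given saline and ZXD rats Zexie Decoction, a traditional herbal extract, at 2.2 g per kg of body weight per day for another 4 weeks. The effects of fat, cholesterol, bile salt and propylthiouracil cannot be told apart in this design. The labels state 10 rats per group and do not tie a library to a rat, so the p-values measure the spread between libraries. Ages were not stated in those labels.

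Total counts lay between 12552449 and 14228052 per library. Values are CPM, the counts of a gene per 1000000 counts of the library, after scaling the library size by TMM, a method that takes most genes to be at equal level. Comparisons are log2 fold changes ± SE from edgeR's quasi-likelihood test, called at a Benjamini-Hochberg adjusted p under 0.05 over the 13163 genes tested. The tissue label was checked against hepatocyte markers: their summed level was 181974 to 217714 CPM in CON, 92326 to 122026 CPM in HFD and 65003 to 133321 CPM in ZXD, and none of the 16 was at 0 throughout. Albumin (Alb) was the largest part, with means of 104205, 39352 and 33746 CPM. In HFD versus CON 5 of the 16 were called lower and 11 were not called (10.9% of all tested genes were lower). In ZXD versus CON 7 were lower and 9 not called (14.8% of all tested genes were lower). In bulk tissue, fewer cells of a type and less RNA per cell cannot be told apart. ZXD 4 stood apart: its hepatocyte sum was the lowest of all libraries, its sum of macrophage markers the highest (8303 CPM, against 389 to 1102 in CON), and it was the lowest ZXD library for 35 of the 44 conjugation genes tested. ZXD 3 also had a high macrophage sum, 6457 CPM, and so did HFD 2 (4252 CPM) and HFD 5 (3195 CPM) within their group.

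Of the 56 conjugation rows, 44 had enough counts to be tested. The other 12 did not pass the count filter: Gstm6 (1 to 39 counts per library), Gstm6l, Gstt4, Sult1d1, Sult4a1, Sult5a1, Sult6b1, Ugt1a8, Ugt1a9, Ugt2a1, Ugt2b7 and Ugt3a2, the last with 0 counts in all 15 libraries. Which row had the highest mean level per length differed by group. In CON it was Sult2a1_1 (1219 CPM per kb), followed by Gstm2 (1047 CPM per kb) and Gstm1 (992 CPM per kb). In HFD the order was Gstm1 (1228 CPM per kb), Gstm2 (1054 CPM per kb) and Gsta1 (545 CPM per kb), with Sult2a1_1 at 76.2 CPM per kb, and in ZXD it was Gstm1 (847 CPM per kb), Gstm2 (710 CPM per kb) and Sult2a6 (530 CPM per kb). A row name that ends in _1 is a numbered copy of a symbol in the table.

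On the diet, 4 Ugt1a genes, Gstm3_1, Gsta3 and Gstp1 rose, while Sult1c3, Sult2a1_1, 3 Ugt2b genes and Gsto1 fell. Another 3 low rows were called, Sult2a2 and Sult2a2_1 higher and Sult2a1 lower, but they passed the count filter through the group where they are high alone, so their calls follow in part from the filter. In HFD versus CON this made 9 genes higher and 7 lower. Without the 3 rows it was 7 higher and 6 lower, 17.1% and 14.6% of 41, where 10.0% of all tested genes were higher and 10.9% lower. The median log2 fold change of the 44 was -0.16, against 0.02 for all genes and -0.45 for the 16 hepatocyte markers. Scaling by library totals in place of TMM moved the median of all genes to 0.44 and the split to 14 higher and 4 lower. Without HFD 2 and HFD 5, 6 genes were higher and 3 lower. With limma voom 5 were higher. Leaving out single libraries gave 3 lower without CON 3 and 4 lower without HFD 5.

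In ZXD versus CON, 8 conjugation genes were higher and 11 lower. Without the same 3 rows it was 6 higher and 10 lower, 14.6% and 24.4% of 41, where 17.9% of all tested genes were higher and 14.8% lower. With limma voom 2 of the 44 were higher. The median log2 fold change of the 44 was -0.57, against 0.03 for all genes and -0.54 for the 16 hepatocyte markers. This comparison shares its CON libraries with the one before, so the 2 sets of calls are not independent. With library totals the split was 11 higher and 7 lower and the median of all genes 0.45. Without ZXD 3 and ZXD 4, 8 genes were higher and 6 lower, and without ZXD 2 there were 18 lower.

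Between ZXD and HFD, 0 conjugation genes passed the edgeR threshold in either direction, and 0% of all tested genes did. At an unadjusted p under 0.05 in edgeR there were 7 of the 44 conjugation genes tested and 2167 of all 13163 genes tested, which are similar shares. DESeq2 called 1 conjugation gene lower, Gstm3_1, and limma voom called 0.

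**Figure D1:**
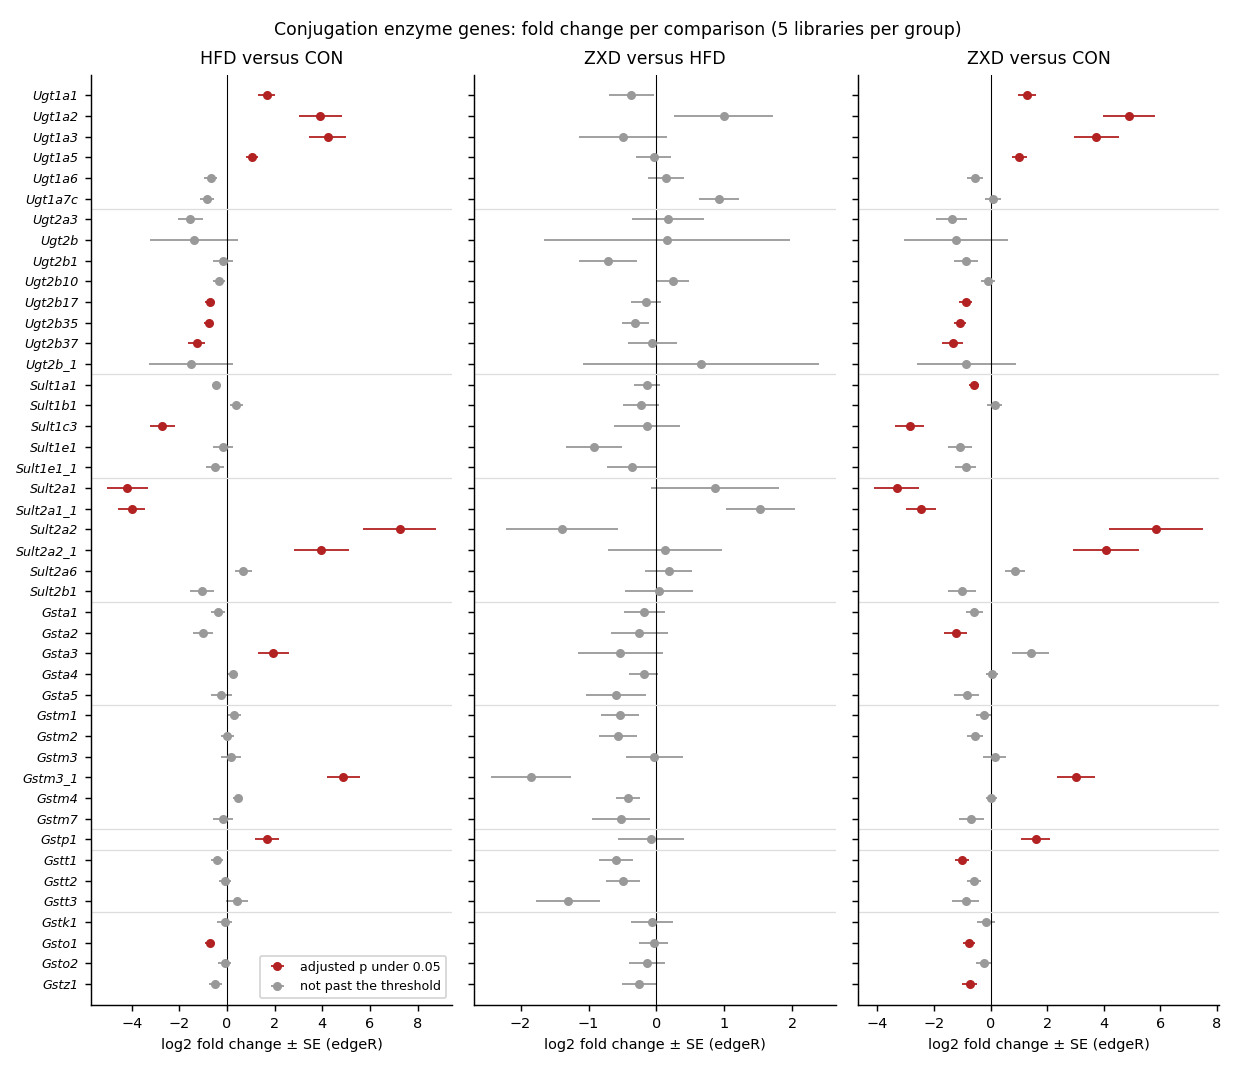
Log2 fold change ± SE of the 44 tested conjugation genes in 3 comparisons, with grey lines between families and red points for adjusted p under 0.05 in edgeR. The 4 red Ugt1a genes lie right of 0 and the red Ugt2b genes left of 0 in both comparisons with CON; the middle panel, on its own narrower axis, has no red point.

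The summed level of all 56 rows was 10777 ± 404 CPM in CON, 8812 ± 1095 in HFD and 7237 ± 3243 in ZXD (SD, n = 5 each). As a share of all counts, with no TMM scaling, the order of CON and HFD was the opposite: 0.887% ± 0.0484, 0.968% ± 0.0994 and 0.778% ± 0.304. Within ZXD the sum was 9320, 11301, 5206, 3103 and 7257 CPM in ZXD 1 to ZXD 5. The ZXD libraries thus spanned more than the other groups, with ZXD 4 and ZXD 3 lowest, the libraries with the highest macrophage marker sums. Within HFD the order was mixed. HFD 2, with the highest macrophage sum of its group (4252 CPM), had the median conjugation sum, 9302 CPM. HFD 5 (3195 CPM) had the lowest, 7222 CPM. The part of cell composition in the spread of these sums was not tested.

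Of the 6 Ugt1 genes tested, 4 rose in HFD versus CON and 0 fell (10.0% and 10.9% of all genes), and with every scaling tried these 4 were higher. Ugt1a1, the enzyme that conjugates bilirubin, was at 249, 281, 268, 194 and 311 CPM in CON, at 807, 680, 942, 1272 and 431 CPM in HFD, and at 862, 1029, 497, 257 and 543 CPM in ZXD. Every HFD library was above every CON library, whereas on this TMM scale ZXD 4 lay inside the CON range. In deposited counts ZXD 4 (4206) was above the highest CON library, CON 5 (3653). The log2 fold change was 1.66 ± 0.34 in HFD versus CON (edgeR adjusted p = 0.004) and 1.29 ± 0.33 in ZXD versus CON (edgeR adjusted p = 0.0102). For ZXD versus HFD it was -0.37 ± 0.33 (edgeR adjusted p = 0.566).

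Ugt1a3 and Ugt1a2 started near the detection limit, where 3 counts are worth 0.183 to 0.285 CPM. Ugt1a3 was at 0.266 to 1.34 CPM in CON, 3.93 to 41.8 CPM in HFD and 2.81 to 24.7 CPM in ZXD, with no overlap between CON and either other group. Its log2 fold change was 4.22 ± 0.79 in HFD versus CON (edgeR adjusted p = 0.00256; 3.49 without HFD 4) and 3.73 ± 0.79 in ZXD versus CON (edgeR adjusted p = 0.00392). Ugt1a2 was at 0.0851 to 1.52 CPM in CON, 4.79 to 17.5 CPM in HFD and 3.9 to 69.1 CPM in ZXD, where ZXD 4 was highest. Its log2 fold changes against CON were 3.91 ± 0.91 for HFD (edgeR adjusted p = 0.0087) and 4.90 ± 0.92 for ZXD (edgeR adjusted p = 0.00216). Without ZXD 4 the latter was 3.45, without ZXD 3 and ZXD 4 it was 2.95, and without CON 1 the values were 4.50 for HFD and 5.49 for ZXD. Under limma voom neither gene passed: adjusted p was 0.0787 and 0.1 in HFD versus CON, and 0.0979 and 0.059 in ZXD versus CON, for Ugt1a3 and Ugt1a2 in that order.

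Ugt1a5 was at 38.1 ± 7.66 CPM in CON, 78.8 ± 20.1 CPM in HFD and 76.6 ± 32.3 CPM in ZXD (SD, n = 5 each). It rose by a log2 fold change of 1.05 ± 0.26 in HFD versus CON (edgeR adjusted p = 0.0126) and 1.01 ± 0.26 in ZXD versus CON (edgeR adjusted p = 0.0101). Ugt1a6, which conjugates small phenols, was not called: 9.77 ± 3.81, 6.06 ± 1.83 and 6.67 ± 1.31 CPM. Ugt1a7c was at 3.49 ± 1.01, 1.95 ± 0.514 and 3.67 ± 1.24 CPM, and its log2 fold change in ZXD versus HFD, 0.92 ± 0.30, had the second smallest p of the 44 genes without passing (edgeR adjusted p = 0.183). The 8 Ugt1a rows have 8 start sites and 1 common end site in the table, since each first exon is spliced to the same shared exons. Reads of the shared exons cannot be assigned to one row, and no source used here says how the counter treated them.

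Each first exon of the Ugt1 locus has its own promoter. The 250 bases before the RefSeq start (build GRCr8, plus strand) are shown for the abundant Ugt1a1 (chr9:96248893-96249142) and the scarce Ugt1a3 (chr9:96227884-96228133), both of which rose. Capitals mark GTTAAT, the half-site of the hepatocyte factor HNF1, which appears here as its reverse complement ATTAAC.
Ugt1a1: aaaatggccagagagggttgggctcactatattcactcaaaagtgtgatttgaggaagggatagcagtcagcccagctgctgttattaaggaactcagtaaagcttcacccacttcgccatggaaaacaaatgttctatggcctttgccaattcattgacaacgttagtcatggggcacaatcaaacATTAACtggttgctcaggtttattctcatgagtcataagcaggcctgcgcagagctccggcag
Ugt1a3: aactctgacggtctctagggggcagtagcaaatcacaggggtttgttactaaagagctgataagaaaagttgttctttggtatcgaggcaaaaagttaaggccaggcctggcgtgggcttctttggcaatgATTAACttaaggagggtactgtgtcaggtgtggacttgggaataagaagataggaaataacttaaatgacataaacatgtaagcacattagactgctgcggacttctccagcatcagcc

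The half-site starts 63 bases before the Ugt1a1 start and 119 bases before the Ugt1a3 start. On either strand it was found in 8 of the 45 windows that RefSeq gives for 43 of the 51 distinct conjugation gene symbols, and in 6.45% of all 33469 windows of that length. Among Ugt1 genes it was in the windows of Ugt1a1, Ugt1a2, Ugt1a3 and Ugt1a6, and the last of these was not called. Another 3 motifs were searched on both strands. AGGTCA, a nuclear receptor half-site, was in 4 conjugation windows and 14.1% of all. TGACNNNGC, the antioxidant response element core, was in 4 (Gstp1, Gstm7, Gstz1 and Gsta3) and 10.1% of all. TATAAA was in 9 and 12.9% of all. These are matches of letters and were not tested against the expression values.

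The Ugt2 genes, whose enzymes glucuronidate steroids and bile acids, included 3 of 8 tested that fell in HFD versus CON and 0 that rose (10.9% and 10.0% of all genes). Ugt2b17 was at 624, 779, 857, 756 and 782 CPM in CON, 383, 407, 584, 548 and 379 CPM in HFD, and 450, 600, 361, 218 and 447 CPM in ZXD. On this TMM scale no HFD or ZXD library reached the lowest CON library. In deposited counts HFD 3 (7909), HFD 4 (8040) and ZXD 2 (7700) were above CON 1 (6957). Its log2 fold change was -0.72 ± 0.22 in HFD versus CON (edgeR adjusted p = 0.0349) and -0.87 ± 0.23 in ZXD versus CON (edgeR adjusted p = 0.0101). Scaling by library totals gave -0.31 in HFD versus CON and ended the call (adjusted p = 0.191), as did leaving out HFD 1, HFD 2, HFD 5 or any library from CON 2 to CON 5 (adjusted p between 0.0654 and 0.0877).

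Ugt2b35 was at 705 ± 112 CPM in CON, 413 ± 91.7 CPM in HFD and 334 ± 80.1 CPM in ZXD (SD, n = 5 each), a log2 fold change of -0.77 ± 0.20 in HFD versus CON (edgeR adjusted p = 0.0166). With library totals it was -0.36 (adjusted p = 0.106), and without CON 3 it was -0.70 (adjusted p = 0.0519). Against CON, ZXD gave -1.08 ± 0.20 (edgeR adjusted p = 0.00219). Ugt2b37 fell most of the 3, from 385 ± 87.1 CPM to 159 ± 55.6 and 152 ± 83 CPM, by 1.28 ± 0.37 on the log2 scale in HFD versus CON (edgeR adjusted p = 0.0246). Leaving out CON 3, CON 4, HFD 2 or HFD 5 ended this call (adjusted p between 0.0608 and 0.0631). Ugt2a3 had no HFD library above 61.9 CPM and no CON library under 68 CPM, yet missed the threshold at -1.54 ± 0.54 (edgeR adjusted p = 0.0559). In deposited counts HFD 2 (888) was above CON 1 (758) for this gene. Ugt2b1 and Ugt2b10 did not pass the edgeR test in any of the 3 comparisons.

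**Figure D2:**
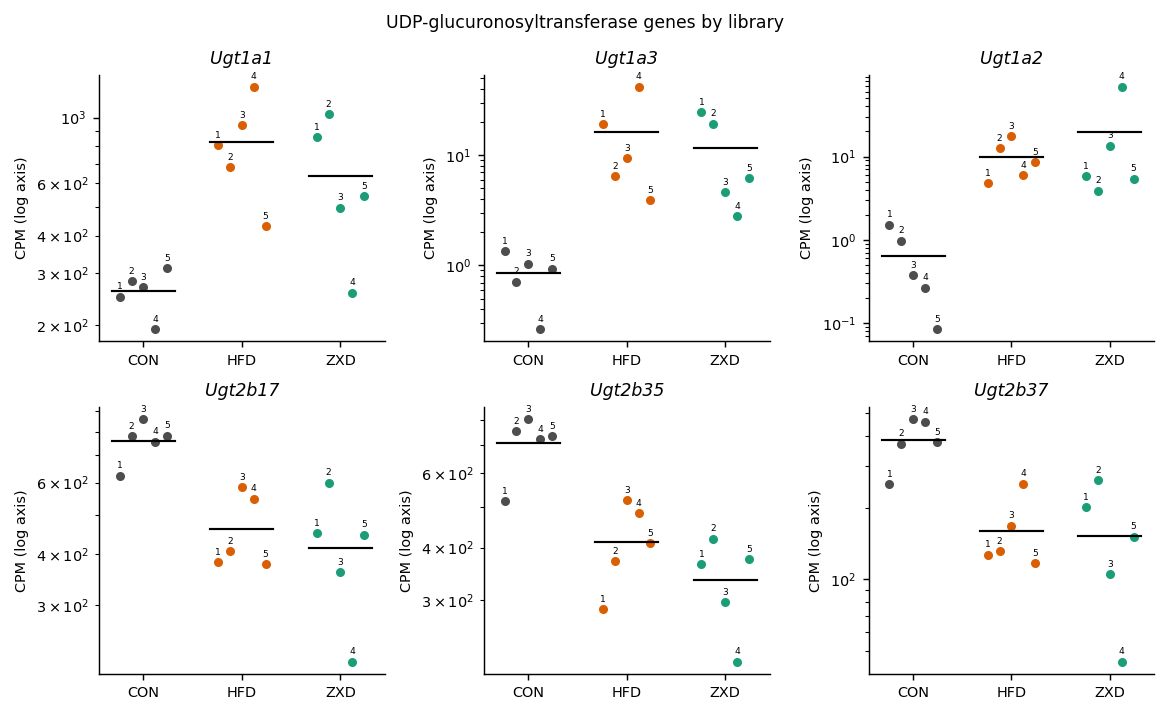
CPM (log axis) of 6 UGT genes in CON, HFD and ZXD; points are libraries with their replicate number and black lines are group means. Ugt1a1, Ugt1a3 and Ugt1a2 are higher in HFD than in CON with no overlap. Ugt2b17 is lower in HFD and ZXD than its lowest CON library at 624 CPM, a gap seen after TMM scaling but not in deposited counts.

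Across the 15 libraries, 2 rows of the symbol Ugt2b jumped between high and almost none inside every group. Ugt2b had 8606, 10217, 12, 9081 and 11153 counts in CON 1 to CON 5, then 8771, 10754, 16, 13 and 10 in HFD 1 to HFD 5, and 7546, 7371, 15, 8 and 5123 in ZXD 1 to ZXD 5. Ugt2b_1 was low in the same libraries, CON 3, HFD 3, HFD 4, HFD 5, ZXD 3 and ZXD 4. In those 6 libraries the rows were at 0.427 to 1.4 CPM, and in the other 9 Ugt2b was at 371 to 949 CPM and Ugt2b_1 at 309 to 611 CPM. The log2 CPM of the rows had a Pearson r of 0.99 over the 15 libraries, given as a description. The rows, 941 and 759 bases long, lie on different small sequences outside the chromosomes of the annotation used.

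No other conjugation row met the same rule. Ugt2b17 was at 857 CPM in CON 3, 584, 548 and 379 CPM in HFD 3 to HFD 5, and 361 and 218 CPM in ZXD 3 and ZXD 4. In the whole table, 87 of the 11518 rows that reach 5 CPM in some library (0.755%) fell under 1% of a group's highest library, and only Ugt2b and Ugt2b_1 had this pattern of 9 high and 6 low libraries. A stricter rule, which asks for 3 counts or fewer in the low library, found 0 conjugation rows, since the low libraries held 6 to 19 counts. Both rows were therefore singled out after their values were seen. RefSeq lists Ugt2b with the synonym Ugt2b2.

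**Figure D3:**
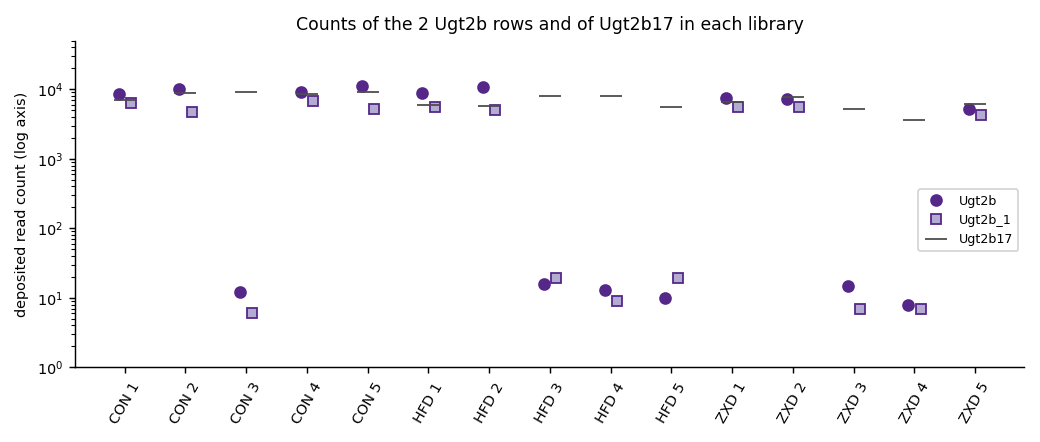
Deposited read counts (log axis) of Ugt2b, Ugt2b_1 and Ugt2b17 in each of the 15 libraries. Ugt2b and Ugt2b_1 lie at 6 to 19 counts in 6 libraries spread over all groups and, in the other 9, near the counts of Ugt2b17, which has no such drop.

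Neither row was called. The log2 fold change of Ugt2b in HFD versus CON was -1.38 ± 1.84 (edgeR adjusted p = 0.612), with means of 687 ± 391 and 264 ± 366 CPM that hold 1 low CON library and 3 low HFD libraries. The rows also weigh on the family sum. Ugt2 totals were 3437 ± 506, 1817 ± 489 and 1703 ± 921 CPM in CON, HFD and ZXD with them, and 2340 ± 376, 1410 ± 316 and 1185 ± 453 CPM without them (SD, n = 5 each). The cause of the dropouts was not tested. The sequence just before the RefSeq start of Ugt2b (chr14:20985199-20985448, plus strand, GRCr8) is printed, with TATAAA in capitals, which starts 43 bases before the start. It was chosen by symbol, and whether either row is this locus was not settled.
Ugt2b: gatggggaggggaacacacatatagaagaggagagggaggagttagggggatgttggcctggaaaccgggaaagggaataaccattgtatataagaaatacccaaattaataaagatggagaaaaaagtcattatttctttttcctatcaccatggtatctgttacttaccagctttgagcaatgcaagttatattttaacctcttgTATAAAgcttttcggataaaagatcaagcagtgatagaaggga

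Among sulfotransferases, the falls were the largest of all conjugation genes. Sult2a1_1, a row of the hydroxysteroid sulfotransferase that acts on dehydroepiandrosterone and bile acids, was at 839, 260, 326, 538 and 358 CPM in CON. It was at 64.8, 8.23, 24, 32.6 and 15.6 CPM in HFD and at 101, 81.3, 86.2, 27.5 and 125 CPM in ZXD. Both diet groups lay wholly below CON, and 4 of the 5 ZXD libraries lay above the highest HFD library, with ZXD 4 inside the HFD range. The log2 fold change was -4.00 ± 0.56 in HFD versus CON (edgeR adjusted p = 0.000308) and -2.46 ± 0.52 in ZXD versus CON (edgeR adjusted p = 0.00392). In ZXD versus HFD it was 1.53 ± 0.51, with an unadjusted p of 0.00845 that did not pass (edgeR adjusted p = 0.186).

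The other row, Sult2a1, held 18 to 41 counts in CON and 7, 0, 0, 0 and 2 counts in HFD, or 2.37 ± 0.729 and 0.118 ± 0.196 CPM (SD, n = 5 each). Its fitted log2 fold change of -4.18 ± 0.85 (edgeR adjusted p = 0.00391) became -5.75 without HFD 1, and in ZXD versus CON it was -3.32, or -2.66 without ZXD 3 and ZXD 4. No HFD or ZXD library reached the filter's count minimum for this row. These rows are 381 and 223 bases long, much shorter than Sult2a6 with 1000 bases, and lie on different small sequences of the annotation. How reads were divided between such copies is not known. Sult2a6, a bile acid sulfotransferase by its RefSeq synonym BAST I, did not fall: 291 ± 51.8, 467 ± 198 and 530 ± 281 CPM in CON, HFD and ZXD. Its log2 fold change was 0.68 ± 0.35 in HFD versus CON (edgeR adjusted p = 0.169), and with library totals it was 1.10 and passed (adjusted p = 0.0154). In ZXD versus CON it was 0.87 ± 0.35 (edgeR adjusted p = 0.071), and it passed without ZXD 4 (1.08, adjusted p = 0.0176), without ZXD 3 and ZXD 4 (1.12, adjusted p = 0.0379), with DESeq2 (0.86, adjusted p = 0.0417) and with library totals (1.25, adjusted p = 0.0062).

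Sult2a2 had 0 counts in the 5 CON libraries and 2.72, 0.139, 2.58, 0.749 and 0.813 CPM in HFD. Against a floor of 3 counts in the CON library with the highest floor, 0.285 CPM, the HFD mean was at least 4.91-fold higher and the ZXD mean at least 1.87-fold higher. Its copy Sult2a2_1 went from 0.0728 ± 0.117 to 1.25 ± 0.95 and 1.37 ± 1.29 CPM (SD, n = 5 each). The fitted log2 fold change of Sult2a2_1 in HFD versus CON was 3.96, and 5.31 without CON 1; in ZXD versus CON it was 4.08, 5.44 without CON 1 and 3.49 without ZXD 3. Leaving out HFD 5 or any of CON 2 to CON 5 ended its call in HFD versus CON (adjusted p between 0.057 and 0.0657). Both rows passed the count filter through the diet groups alone, and both stay near the level of a few counts.

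Sult1c3, a hydroxyarylamine sulfotransferase by its RefSeq synonym HAST-I, was at 264, 308, 278, 418 and 253 CPM in CON. It was at 12.5, 36.1, 35.9, 46.7 and 100 CPM in HFD and at 57.4, 12.2, 49, 71.6 and 19.6 CPM in ZXD. All 10 libraries of the diet groups were below the lowest CON library. Against CON, the log2 fold changes were -2.72 ± 0.52 for HFD (edgeR adjusted p = 0.00283) and -2.86 ± 0.52 for ZXD (edgeR adjusted p = 0.00178), and the gene did not differ detectably between ZXD and HFD (-0.14 ± 0.49, edgeR adjusted p = 0.9).

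The 250 bases before the starts of the abundantly expressed Sult1c3 (chr9:7594257-7594506, minus strand, GRCr8) and of Sult2a1 (chr1:84638948-84639197, minus strand) are shown because these genes fell most. TATAAA is in capitals. The Sult1c3 window holds none of the 4 motifs as spelled, and the Sult2a1 window holds TATAAA starting 50 bases before the start.
Sult1c3: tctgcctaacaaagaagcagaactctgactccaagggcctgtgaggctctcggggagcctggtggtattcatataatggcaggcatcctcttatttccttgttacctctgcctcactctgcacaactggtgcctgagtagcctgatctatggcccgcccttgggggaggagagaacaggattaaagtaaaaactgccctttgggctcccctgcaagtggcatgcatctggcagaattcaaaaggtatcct
Sult2a1: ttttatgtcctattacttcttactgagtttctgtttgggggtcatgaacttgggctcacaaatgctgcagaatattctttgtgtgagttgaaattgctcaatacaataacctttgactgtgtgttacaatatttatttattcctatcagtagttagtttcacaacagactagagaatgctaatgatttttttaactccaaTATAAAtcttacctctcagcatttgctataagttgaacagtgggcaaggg

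Of the other Sult1 rows, 1 was called in 1 comparison by the edgeR fit of all libraries. Sult1a1, the phenol sulfotransferase, was at 645 ± 115 CPM in CON, 473 ± 64.5 CPM in HFD and 428 ± 112 CPM in ZXD (SD, n = 5 each). It passed in ZXD versus CON at -0.59 ± 0.19 (edgeR adjusted p = 0.0288), a call lost with library totals (-0.18, adjusted p = 0.392) and without any one of CON 2 to CON 5 or ZXD 3 to ZXD 5 (adjusted p between 0.0526 and 0.0684), and was not called in HFD versus CON (-0.45 ± 0.19, edgeR adjusted p = 0.102). CON 1, at 444 CPM, stood below the other CON libraries, and without it HFD versus CON gave -0.56 and passed (adjusted p = 0.0455). Sult1b1 was at 193 ± 6.12, 250 ± 58.6 and 213 ± 89.4 CPM and did not pass the edgeR test in any comparison. The estrogen sulfotransferase rows Sult1e1 and Sult1e1_1 did not pass in that fit, with log2 fold changes of -1.08 ± 0.41 and -0.88 ± 0.38 in ZXD versus CON (edgeR adjusted p = 0.056 and 0.0854). Sult1e1_1 did pass there with DESeq2 (-0.89, adjusted p = 0.0498) and with only the groups compared in the edgeR fit (-0.87, adjusted p = 0.0248).

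**Figure D4:**
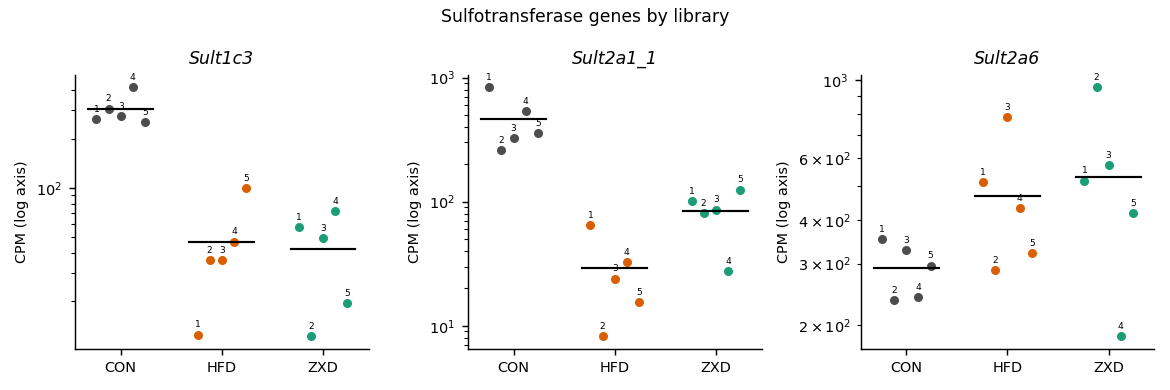
CPM (log axis) of Sult1c3, Sult2a1_1 and Sult2a6 in CON, HFD and ZXD; points are libraries with their replicate number and black lines are group means. Sult1c3 and Sult2a1_1 lie below every CON library in both diet groups, and Sult2a6 overlaps between all groups.

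Of the 19 GST rows tested, 3 rose and 1 fell in HFD versus CON, 15.8% and 5.26% against 10.0% and 10.9% of all genes. The summed level of all 22 GST rows was 4978 ± 633 CPM in CON, 4679 ± 623 CPM in HFD and 3398 ± 1588 CPM in ZXD (SD, n = 5 each), and as a share of all counts, where HFD was above CON, 0.41% ± 0.0531, 0.514% ± 0.057 and 0.365% ± 0.15. Gstm3_1 was at 1.79, 3.83, 2.85, 1.77 and 0.766 CPM in CON, 11.8, 65.1, 90.3, 13.9 and 145 CPM in HFD, and 13.3, 27.5, 8.59, 18.2 and 22.4 CPM in ZXD. CON overlapped with neither diet group, and the HFD libraries themselves ran from 11.8 to 145 CPM. Its rise was 4.88 ± 0.70 on the log2 scale in HFD versus CON (edgeR adjusted p = 0.000408; 4.13 without HFD 2 and HFD 5) and 3.03 ± 0.67 in ZXD versus CON (edgeR adjusted p = 0.00477; limma voom 3.08, adjusted p = 0.0822). In ZXD versus HFD it was -1.85 ± 0.59 with an unadjusted p of 0.00691 (edgeR adjusted p = 0.183), while DESeq2 gave -1.87 (adjusted p = 0.0465).

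Gstm3_1 is a separate locus from the row Gstm3, which stayed at 1.06 ± 0.465, 1.19 ± 0.469 and 1.17 ± 0.468 CPM. In the table's order along the chromosome, 73.1 kb separate them, with Gstm6l, Gstm7 and Gstm6 between and Gstm2 next to Gstm3_1. RefSeq uses Gstm3 as a symbol and also as a synonym of Gstm5 and of Gstm7, so the current symbol of either row was not settled. The abundant mu-class genes were not called: Gstm1 was at 1047 ± 136, 1297 ± 173 and 895 ± 451 CPM, and Gstm2 at 688 ± 157, 693 ± 73.7 and 467 ± 227 CPM. With library totals Gstm1 passed as higher in HFD versus CON (0.73, adjusted p = 0.029), and without ZXD 2 Gstm2 passed as lower in ZXD versus CON (-0.83, adjusted p = 0.0256).

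In the alpha class, which also reduces lipid peroxides, only Gsta3 was called in HFD versus CON. It was at 7.71, 28.7, 28.1, 1.24 and 41.1 CPM in CON and 70.6, 69.3, 110, 104 and 55.8 CPM in HFD, with no overlap. Its log2 fold change of 1.94 ± 0.65 passed narrowly (edgeR adjusted p = 0.0461) and did not pass without CON 1, 2 or 3 or any one HFD library (adjusted p between 0.0557 and 0.085). Gsta2 was at 526 ± 163 CPM in CON, 265 ± 149 CPM in HFD and 223 ± 109 CPM in ZXD (SD, n = 5 each). It was called in ZXD versus CON (-1.24 ± 0.42, edgeR adjusted p = 0.036), where leaving out CON 2, CON 3 or any of ZXD 3 to ZXD 5 ended the call (adjusted p between 0.0636 and 0.091), and not in HFD versus CON (-0.99 ± 0.42, edgeR adjusted p = 0.102), where leaving out HFD 4 made it one (-1.35, adjusted p = 0.0316). Gsta1 was at 826 ± 97.3, 631 ± 113 and 557 ± 282 CPM. Gsta4, which handles the peroxidation product hydroxynonenal, was at 77.3 ± 2.4, 90.6 ± 15.5 and 79.4 ± 31.6 CPM. Neither was called, nor was Gsta5; without ZXD 2, Gsta1 passed in ZXD versus CON (-0.83, adjusted p = 0.0393).

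Gstp1, the pi-class enzyme known from bile duct cells and from preneoplastic foci of rat liver, was at 8.52, 6.06, 6.36, 6.03 and 4.77 CPM in CON. It was at 11.1, 33.4, 6.57, 11.4 and 38.9 CPM in HFD and 12.8, 11.8, 27.1, 37.1 and 7.17 CPM in ZXD. HFD 2, HFD 5, ZXD 3 and ZXD 4 were the 4 highest, and the rest lay between 6.57 and 12.8 CPM, partly inside the CON range. Gstp1 rose by a log2 fold change of 1.68 ± 0.51 in HFD versus CON (edgeR adjusted p = 0.033) and 1.60 ± 0.51 in ZXD versus CON (edgeR adjusted p = 0.0275). Without HFD 2 and HFD 5 it was 0.61 (adjusted p = 0.429), and without ZXD 3 and ZXD 4 it was 0.74 (adjusted p = 0.327). Leaving out HFD 2 or HFD 5 alone, ZXD 3 or ZXD 4 alone, or any one of CON 2 to CON 5 also ended the call (adjusted p between 0.0546 and 0.0975).

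Those 4 libraries also had the highest macrophage marker sums, though ZXD 5 came close. Its macrophage sum was 3179 CPM against 3195 CPM in HFD 5, while its Gstp1 level was 7.17 CPM. Lymphocyte marker sums were highest in the same 4 libraries as well, at 107 to 182 CPM. The next highest was 80.9 CPM in ZXD 1. Over the groups the macrophage sums ranged from 389 to 1102 CPM in CON, 686 to 4252 CPM in HFD and 1058 to 8303 CPM in ZXD. Cd74 had the highest mean of the list in HFD and ZXD, at 1034 and 1449 CPM against 99.9 CPM in CON. Lyz2 (20, 134 and 620 CPM) and Gpnmb (16.4, 121 and 533 CPM) followed in ZXD. Of the 20 macrophage markers, 7 were called higher in HFD versus CON, where 10.0% of all tested genes were. In ZXD versus CON 17 were higher, where 17.9% of all tested genes were. Clec4f (147, 140 and 166 CPM), Cd163 (40.6, 25.1 and 63.3 CPM) and Vsig4 (40.4, 19 and 32.5 CPM) were called in neither comparison. None of the markers was at 0 throughout. Bile duct markers summed to 375 to 671 CPM in CON, 667 to 1172 CPM in HFD and 713 to 1053 CPM in ZXD. Of 15 tested, 9 were higher in HFD versus CON and 5 in ZXD versus CON, against the same shares of all genes. Krt8 and Krt18 made up most of these sums, at 215 and 178 CPM in CON, 447 and 306 CPM in HFD, and 410 and 267 CPM in ZXD. The defining bile duct gene Krt19 was at 2.08 CPM in CON, 6.74 CPM in HFD and 2.76 CPM in ZXD, where it was not called (edgeR adjusted p = 0.481), and Cftr (1.1, 2.13 and 0.643 CPM) and Prom1 (1.37, 2.41 and 0.938 CPM) had ZXD means below CON. Other markers of the list went the other way. Epcam (17.1, 53.1 and 35.6 CPM) and Anxa4 (35.5, 71.4 and 74.4 CPM) were called higher in both comparisons with CON. In these comparisons 0 bile duct markers were called lower, where 10.9% and 14.8% of all tested genes were. The part of these cells in the Gstp1 result was not tested.

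Of the 7 theta, zeta, omega and kappa genes tested, 1 fell in HFD versus CON (10.9% of all genes did), 3 fell in ZXD versus CON (14.8% of all genes did), and 0 rose. Gstt1, which acts on small halogenated compounds, was at 56.5 ± 9.41 CPM in CON, 42.6 ± 12.3 CPM in HFD and 28.2 ± 9.54 CPM in ZXD (SD, n = 5 each), and fell in ZXD versus CON by 1.0 ± 0.25 on the log2 scale (edgeR adjusted p = 0.00908). Without ZXD 3 and ZXD 4 the adjusted p was 0.0622. Gsto1, a thiol transferase that reduces dehydroascorbate, was at 134 ± 31.8, 80.9 ± 8.81 and 78.8 ± 26.4 CPM and fell by 0.73 ± 0.21 in HFD versus CON (edgeR adjusted p = 0.0265). With library totals this was -0.32 (adjusted p = 0.194), and leaving out CON 2, CON 3, CON 5, HFD 2 or HFD 5 also ended the call (adjusted p between 0.0604 and 0.0716). Gstz1, an enzyme of tyrosine breakdown, was at 733 ± 33.4, 522 ± 102 and 438 ± 198 CPM. It passed in ZXD versus CON at -0.74 ± 0.26 (edgeR adjusted p = 0.0424), though not without any one CON library or any of ZXD 3 to ZXD 5 (adjusted p between 0.06 and 0.101) nor with library totals (-0.36, adjusted p = 0.215), and in HFD versus CON it passed with only these groups in the fit (-0.46, adjusted p = 0.0338). Gstt3 had a log2 fold change of -1.30 ± 0.47 in ZXD versus HFD (edgeR adjusted p = 0.213). Gstt2, Gstk1 and Gsto2 did not pass the edgeR test of all libraries, but Gstt2 passed in ZXD versus CON without ZXD 2 (-0.71, adjusted p = 0.0466).

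**Figure D5:**
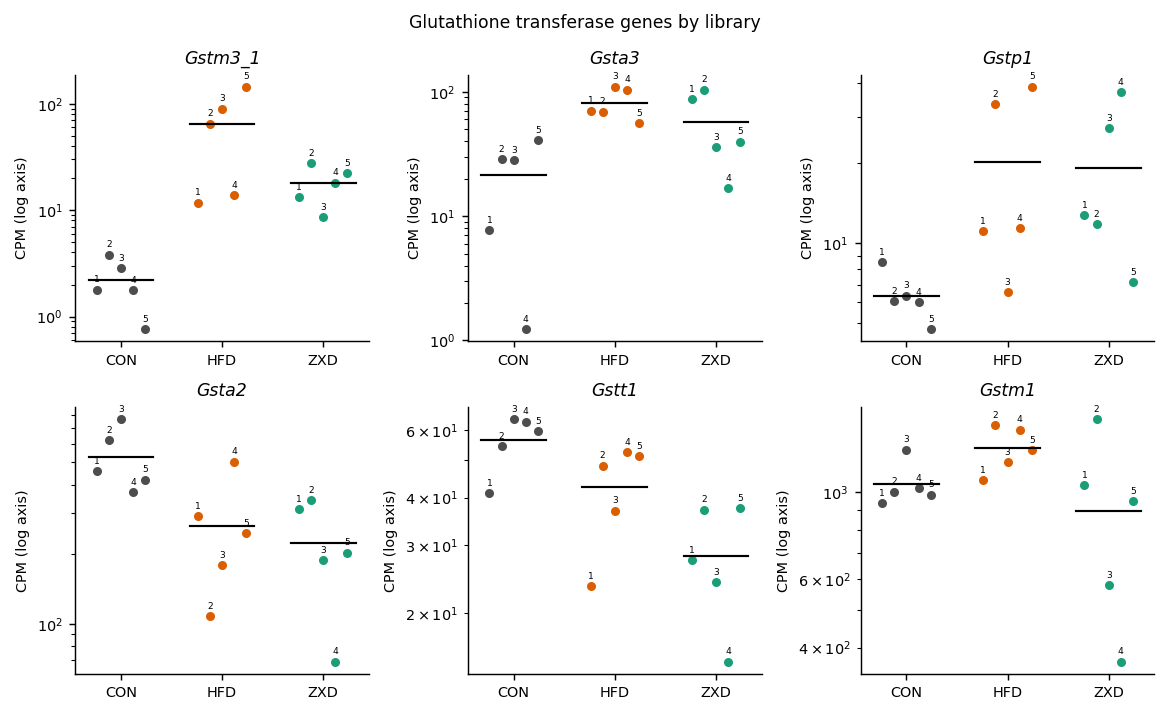
CPM (log axis) of 6 GST genes in CON, HFD and ZXD; points are libraries with their replicate number and black lines are group means. Gstm3_1 is above every CON library in both diet groups, and Gstp1 is highest in HFD 2, HFD 5, ZXD 3 and ZXD 4.

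Genes around the conjugation step were counted by list, against the 10.0% and 10.9% of all genes higher and lower in HFD versus CON. Of 9 genes of UDP-glucuronate supply tested, 0 were higher and 3 lower. Ugdh, which makes UDP-glucuronate, was not called (0.07 ± 0.20, edgeR adjusted p = 0.822); the 3 were the transporter Slc35d1, Pgm1 and Rgn, and Rgn serves ascorbate synthesis. Of 12 genes of PAPS supply and sulfate metabolism, 0 were higher and 5 lower: the sulfate carrier Slc26a1, Bpnt1, Tst, Cdo1 and Csad. The last pair catabolise cysteine, and Csad fell by 2.00 ± 0.34 on the log2 scale (edgeR adjusted p = 0.00144). The PAPS synthase Papss2 was not called (-0.56 ± 0.22, edgeR adjusted p = 0.0747).

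Of 18 genes of glutathione supply, 1 was higher and 5 lower. Both subunits of the rate-limiting enzyme of glutathione synthesis fell: Gclm by 1.03 ± 0.17 on the log2 scale (edgeR adjusted p = 0.00104) and Gclc by 0.73 ± 0.24 (edgeR adjusted p = 0.0451). Ggt1, which degrades extracellular glutathione, rose from 1.11 ± 0.568 to 9.38 ± 6.1 CPM. Of 9 membrane glutathione transferases and relatives, 1 was higher, Clic1, and 0 lower, with Mgst1 at 1893 ± 147 and 1587 ± 88.1 CPM (SD, n = 5 each).

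Of 18 receptors and regulators of these genes, 3 were higher and 4 lower. Nfe2l2, which encodes the antioxidant response factor NRF2, rose by a log2 fold change of 0.62 ± 0.11 (edgeR adjusted p = 0.00142). The bile acid receptor Nr1h4 fell by 1.25 ± 0.19 (edgeR adjusted p = 0.000687) and the estrogen receptor Esr1 by 3.66 ± 0.58 (edgeR adjusted p = 0.000804). The xenobiotic receptors Nr1i2 and Nr1i3 were not called (-0.58 ± 0.26 and -0.24 ± 0.41). Of 19 genes of other conjugation enzymes and related enzymes, 1 was higher and 6 lower. The acetyltransferase Nat8 fell from 41.5 ± 9.36 to 1.13 ± 0.816 CPM. The 1 higher gene was Nqo1, a quinone reductase and not a conjugation enzyme, which rose from 17.2 ± 8.46 to 46.5 ± 20.4 CPM.

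Of 15 exporters and uptake carriers of conjugates, 4 were higher and 0 lower in HFD versus CON. Abcb1b rose from 19.6 ± 11 to 515 ± 297 CPM (SD, n = 5 each) and Abcc3, an exporter of glucuronides to the blood, from a range of 6.2 to 26.3 CPM to one of 90.8 to 190 CPM. Abcc2, the exporter to bile, was not called (-0.71 ± 0.44, edgeR adjusted p = 0.25). In ZXD versus CON, which shares the CON libraries, 17.9% of all genes were higher and 14.8% lower. The counts of higher and lower genes were 0 and 3 for UDP-glucuronate supply, 1 and 5 for sulfate, and 3 and 7 for glutathione. They were 3 and 2 for membrane transferases, 3 and 6 for regulators, 1 and 8 for other enzymes, and 4 and 3 for exporters. In ZXD versus HFD, 0 genes of these lists were called. The members of these lists were chosen with earlier results of these data known, so their counts are descriptions.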

How the data were processed

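RNA of 15 rat liver libraries was sequenced, 5 each in CON, HFD and ZXD, grouped by their titles. The authors deposited 1 table with whole-number read counts and FPKM per gene, per the file headers. It also holds gene lengths in bases, deposited by the authors. Per the submitters' processing notes, edgeR was used, without its role or version. Aligner, counter, strand use, build and annotation: not given in the sources used here. No coordinates of the table are printed. The deposited FPKM equalled count per length and total for 100% of values within 0.01%, so only counts were used.

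Conjugation genes and lists were chosen with earlier results of these data known. Of the 56 rows, 54 base symbols were RefSeq (GRCr8) symbols and 1 a synonym. Promoter sequences are RefSeq's. Counts were scaled by TMM, filtered with filterByExpr (minimum count 10, total 15), and fitted over all 15 libraries with edgeR 4.0.16 in R 4.3.3, by group alone. SE is the log2 fold change over the square root of F. CPM use TMM-scaled totals. A count of 3 is 0.183 to 0.285 CPM, which covers counting error only. The model was tested on simulated counts. Genes named are those called, the 2 most abundant per family, rows that switch, the 5 smallest p in ZXD versus HFD, and up to 3 called per list; others named, such as uncalled family members, were added after their values were seen. Alternatives used DESeq2 1.42.0, limma voom 3.58.1, other scales and filters, and fewer libraries. A simvastatin group in the labels was not analysed here.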

Additional observations from a re-analysis of the deposited data

Results flagged for a closer look

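Within groups, 30 named conjugation genes were screened for a library far from its group by Dixon's ratio at the 95% level, 90 groups in all. This marked 7 values, and chance marks about 1 group in 20. For Ugt2b and Ugt2b_1, CON 3 was at 1.14 CPM and 0.57 CPM where the other CON libraries were at 772 to 949 CPM and 418 to 611 CPM; HFD and ZXD, with several low libraries each, were not marked. CON 1 was low for Sult1a1, at 444 CPM against 661 to 728 CPM, and for Ugt2b35, at 514 CPM against 722 to 803 CPM. CON 3 was high for Gstm1, at 1285 CPM against 938 to 1024 CPM. CON 4 was low for Gstz1, at 675 CPM against 738 to 756 CPM. ZXD 4 was low for Sult2a1_1, at 27.5 CPM against 81.3 to 125 CPM in the other ZXD libraries.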

How the results depend on the processing

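Of the counts of conjugation genes called, those higher in HFD versus CON (9) became 14 with library totals and 5 with limma voom. Those lower (7) became 4 with library totals, 3 without HFD 2 and HFD 5 together, and 3 to 10 when single libraries were left out. In ZXD versus HFD, DESeq2 called 1 lower gene where edgeR called 0. Those higher in ZXD versus CON (8) became 2 with limma voom, and those lower (11) became 7 with library totals, 6 without ZXD 3 and ZXD 4 together, and 8 to 18 when single libraries were left out. Leaving out HFD 2 with HFD 5, or ZXD 3 with ZXD 4, was chosen after seeing the data. Replicate numbers did not pair the libraries: same-numbered deviations correlated between -0.55 and 0.26. With the replicate block, 7 higher and 5 lower genes were called in HFD versus CON, 0 and 0 in ZXD versus HFD, and 7 and 9 in ZXD versus CON. For switching rows, the rule with 3 counts found 0; a limit of 10 counts found 2 (Ugt2b and Ugt2b_1), a high level of only 2 CPM found 2 (Sult2a2 and Sult2a2_1), and the share of 1% of the highest library, added later, found 2 (Ugt2b and Ugt2b_1). Among the alternatives run, none of the named fold changes that were called reversed. The cause of these differences was not tested. Depth limits the rows of Sult2a1, Sult2a2 and Sult2a2_1, which lie near 3 counts in several libraries.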
